A study of Mus musculus with 4 samples.

Results

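The comparison is of 1 library of N2A cells with an shRNA against Ptbp1 and 1 library of N2A cells with a control shRNA, out of 4 libraries in the series. N2A is a mouse neuroblastoma line, and it is a single line, so nothing here speaks for other neurons. The cells of every library were transfected with a plasmid in a lipid complex for 5 hours and were kept in culture for 3 days. Strand-specific libraries were read as 100-base pairs. The other libraries, of cells with shRNAs against both Ptbp1 and Ptbp2 (the double knockdown) or against Ptbp2 alone, appear below only as values beside the comparison. With 1 library a group there is no spread between replicates, and no difference below was tested. The 11093 genes and 102485 internal exons that passed the read minimums are described, out of 16313 genes with any exon reads.

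Ptbp1 encodes a polypyrimidine tract-binding protein, which binds pyrimidine-rich stretches in introns and mostly represses the exons beside them. Most dividing cells make Ptbp1, and developing neurons replace it with its paralogue Ptbp2. An exon that the protein holds back can add a peptide to the product when its length is a multiple of 3, or can bring in a stop codon that sends the transcript to nonsense-mediated decay.

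The library labelled Ptbp1 knockdown held 190 reads per M exon reads (CPM) of Ptbp1, the double knockdown 142, the Ptbp2 knockdown 724 and control 631, so that the Ptbp1 knockdown kept 30% of the control level. Ptbp2 stood at 272 CPM in the Ptbp1 knockdown, at 57.9 in the double knockdown, at 36.7 in the Ptbp2 knockdown and at 136 in control. The knockdown library therefore lacked most Ptbp1 but carried 2.00 times (200%) as much Ptbp2 RNA. Exon reads summed to 207 to 258 M a library. Of 18 sympathetic neuron and neuroblast markers, 16 were measured, with a sum of 1968 CPM in the Ptbp1 knockdown and 1866 in control. Of the markers of other cell types, 3 of 12 for glia (22.1 CPM in all in the Ptbp1 knockdown, 17.5 in control), 2 of 12 for fibroblasts (10.8 and 5.08), 2 of 12 for muscle (208 and 213, nearly all Myh3), 1 of 12 for blood and endothelium (4.82 and 4.53) and 1 of 10 for epithelium (19.6 and 19.5) were measured.

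Exon use was read from junctions. Inclusion is I/(I + S), where I is the average number of reads on the junctions into and out of the exon and S is the number on the junction that skips it, and at least 20 such reads were required in both libraries. An exon was counted when inclusion differed by at least 20 percentage points. Of 102485 measured exons, 252 (0.246%) were higher in the Ptbp1 knockdown and 117 (0.114%) were lower. Overlapping forms of an exon were counted apart, and the counted exons lay at 243 and 112 distinct loci. Most measured exons were always included. Among the 6413 variable exons, with inclusion of at most 95% in 1 of both libraries and at least 5% in 1, the shares were 3.93% higher and 1.82% lower. At least 1 counted exon was found in 329 genes, 3.31% of those with a measured exon. The 252 higher exons lay in 227 genes and had a median inclusion of 57.3% in the Ptbp1 knockdown and 23.2% in control. Of these, 65 were under 10% in control, and 102 were over 50% in the Ptbp1 knockdown and under 50% in control. The 95% Wilson intervals, which cover counting error only, lay apart for 210 of the 252. The 117 lower exons lay in 110 genes, with a median of 50.7% in the Ptbp1 knockdown and 76.7% in control, and the intervals lay apart for 77. Around the threshold, 64 exons differed by 20 to 22 points and 76 by 18 to 20.

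The exons with higher inclusion were short. Their median length was 69 nucleotides, against 93 for the exons with lower inclusion and 112 for variable exons. Of 277 variable exons of 30 nucleotides or less, 61 were higher in the Ptbp1 knockdown (22%) and 2 were lower (0.722%). For variable exons of 31 to 60 nucleotides 6.48% were higher and 2.72% lower. For those of 61 to 120 nucleotides the shares were 2.95% and 2.15%, and for longer ones 2.35% and 1.40%. The excess of higher over lower exons was thus widest in the shortest class. Of the 61 short exons with higher inclusion, 56 had a length that is a multiple of 3, and 53 were predicted to keep the reading frame. Of variable exons of any length 46.0% had such a length. The share among all short variable exons was not counted, so a trait of short exons in general is not set apart here. The 63 counted short exons lay in 59 genes, the shortest had 9 nucleotides, and 54 of them had at least 50 junction reads in both libraries. Their median inclusion was 54.5% in the Ptbp1 knockdown and 15.7% in control. Most reads over so short an exon cross both of its junctions. The effect of the alignment on these values was not tested.

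**Figure D1:**
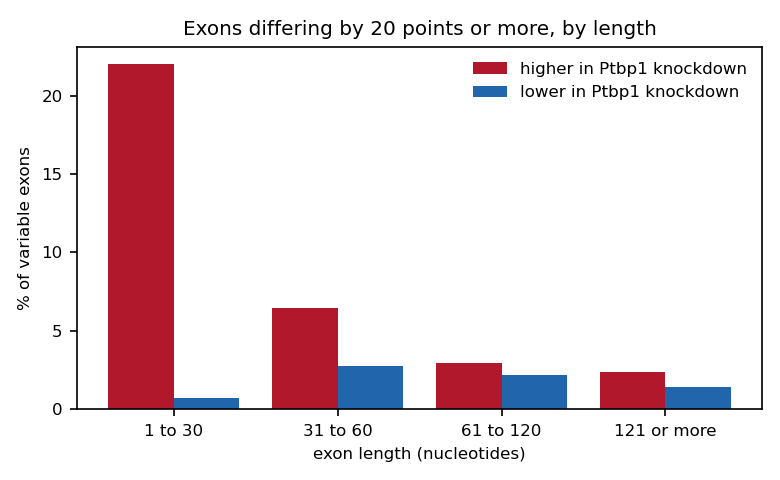
Share of variable exons (y axis, percent) counted as higher or lower in the Ptbp1 knockdown than in control, by exon length in nucleotides (x axis), 1 library each. In the shortest class 22% were higher and 0.722% lower, and in the longest 2.35% and 1.40%.

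Short coding exons of named genes show the pattern, and their sequences are given because each exon adds a few codons and leaves the frame as it was. The exon is in capitals and 12 bases of each neighbouring exon are in lower case, 5′ to 3′ on the gene's strand. The letters are from GENCODE vM21 transcripts matched by structure, and coordinates are those of the data, on mm9.
Fbxo25, chr8:13938922-13938948, plus strand: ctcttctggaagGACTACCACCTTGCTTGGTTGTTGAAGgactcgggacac
Ptk2, chr15:73112648-73112665, minus strand: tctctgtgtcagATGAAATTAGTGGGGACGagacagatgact
Synj1, chr16:90971809-90971832, minus strand: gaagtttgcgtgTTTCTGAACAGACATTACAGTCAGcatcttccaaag
Inpp4a, chr1:37431117-37431134, plus strand: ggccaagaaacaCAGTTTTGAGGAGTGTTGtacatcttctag
Vav2, chr2:27140359-27140373, minus strand: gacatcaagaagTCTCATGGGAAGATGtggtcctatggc
Plec, chr15:76024989-76025003, minus strand: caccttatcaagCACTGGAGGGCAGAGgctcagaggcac
Eif4g1, chr16:20674859-20674879, plus strand: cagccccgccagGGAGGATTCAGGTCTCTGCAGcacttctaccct

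Fbxo25 encodes an F-box protein, the substrate-binding part of a ubiquitin ligase. Its 27-nucleotide exon was at 74.5% in the Ptbp1 knockdown (67.6 to 80.3, 180.5 reads), 78.1% in the double knockdown, 21.2% in the Ptbp2 knockdown and 17.8% in control (13.6 to 23.4, 233.5 reads). Both libraries with low Ptbp1 were high and both with Ptbp1 were low. Ptk2 encodes focal adhesion kinase, a tyrosine kinase at sites where integrins hold the matrix. Its 18-nucleotide exon stood at 79.5% in the Ptbp1 knockdown (65.5 to 88.8, 44 reads), 80.2% in the double knockdown, 27.9% in the Ptbp2 knockdown and 34.6% in control (24.5 to 45.4, 76.5 reads), while the gene was at 121 CPM in the Ptbp1 knockdown and 208 CPM in control. A larger share of a smaller amount of Ptk2 RNA thus held the exon.

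Phosphoinositide phosphatases gave a pair of such exons. Synj1, the phosphatase that helps to uncoat synaptic vesicles after endocytosis, had its 24-nucleotide exon at 73.5% in the Ptbp1 knockdown, 79.8% in the double knockdown, 42.9% in the Ptbp2 knockdown and 44.7% in control. Inpp4a, which removes a phosphate from inositol lipids, had its 18-nucleotide exon at 64.6% in the Ptbp1 knockdown (52.5 to 75.1), 39.7% in the double knockdown, 4.35% in the Ptbp2 knockdown and 37.5% in control (26.7 to 49.7). Inpp4a differed from Synj1 in that the double knockdown was close to control and the Ptbp2 knockdown was far below it. The 30-nucleotide exon of Arhgap21, a GTPase-activating protein, had the same order of libraries, at 36.9%, 14.5%, 2.14% and 11.1%. Fnbp1, a membrane-bending protein of endocytosis, had a 15-nucleotide exon at 56.1% in the Ptbp1 knockdown, 77.5% in the double knockdown, 4.78% in the Ptbp2 knockdown and 8.57% in control.

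Small GTPases that set the actin cytoskeleton, with their exchange factors and activating proteins, held 5 higher and 1 lower counted exons among 743 measured. Vav2, an exchange factor, had 2 of them. Its 15-nucleotide exon was at 64.2% in the Ptbp1 knockdown, 77.3% in the double knockdown, 37.3% in the Ptbp2 knockdown and 29.2% in control, and its 87-nucleotide exon was at 31.2%, 68.5%, 0.647% and 1.43%. A 168-nucleotide exon of the exchange factor Arhgef1 was at 56.4% in the Ptbp1 knockdown (48.2 to 64.5), 56.5% in the double knockdown, 6.67% in the Ptbp2 knockdown and 5.65% in control (3.33 to 9.43). The 81-nucleotide exon of Itsn2, an endocytic scaffold, was included in 34.3% of reads in the Ptbp1 knockdown and 63.4% in the double knockdown. No inclusion was seen in the Ptbp2 knockdown or in control, where 362 reads leave an upper interval bound of 1.05%. All of these exons keep the frame. The levels of these genes differed little, with log2 differences of -0.06 for Vav2, -0.02 for Arhgef1 and -0.06 for Itsn2.

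Cell junction genes held 6 higher and 0 lower counted exons among 258 measured in 18 genes. Afdn, which ties nectins to actin, had a 45-nucleotide exon at 48.0% in the Ptbp1 knockdown (43.2 to 52.9, 403.5 reads) and 7.45% in control (5.58 to 9.89, 577 reads), and a 36-nucleotide exon at 29.3% in the Ptbp1 knockdown and 8.06% in control. The alpha-catenin of neurons, Ctnna2, had a 144-nucleotide exon at 86.1% in the Ptbp1 knockdown, 92.3% in the double knockdown, 51.7% in the Ptbp2 knockdown and 64.3% in control. Pkp4, a catenin relative at junctions, had a 129-nucleotide exon at 74.9%, 86.3%, 47.1% and 45.7% in the same libraries. An 89-nucleotide exon of the scaffold Magi1, both forms of which are annotated as coding, was at 43.8% in the Ptbp1 knockdown and 5.88% in control. An untranslated exon of Ctnnd1, which encodes p120-catenin, was at 35.2% in the Ptbp1 knockdown and 13.2% in control. Integrin and focal adhesion genes held 3 higher exons among 382, in Ptk2 and in Lims1, which encodes the adaptor PINCH, with 2 overlapping forms of 1 exon.

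Genes of the secretory route, where proteins pass from the reticulum to the Golgi, held 4 higher and 0 lower exons among 663. The Golgi matrix protein Golga2 had an 81-nucleotide exon at 82.0% in the Ptbp1 knockdown, 75.6% in the double knockdown, 15.9% in the Ptbp2 knockdown and 53.4% in control. Control lay between the single knockdowns. The Golgi tether Golgb1 had overlapping forms of an exon that differ at their start, the longer of 123 nucleotides at 94.1% in the Ptbp1 knockdown and 70.6% in control. A 69-nucleotide exon of Sec24c, which picks cargo for COPII vesicles, was at 34.9% in the Ptbp1 knockdown and 10.9% in control. Pam, which amidates neuropeptides in secretory granules, had a 318-nucleotide exon at 80.5% in the Ptbp1 knockdown (77.1 to 83.5) and 60.3% in control (56.1 to 64.3).

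Regulators of RNA and chromatin had few counted exons. The translation initiation scaffold Eif4g1 had its 21-nucleotide exon at 46.7% in the Ptbp1 knockdown (43.2 to 50.2, 788 reads) and 21.5% in control (19.1 to 24.4, 926.5 reads). A 105-nucleotide exon of Kmt2c, a histone methyltransferase, was at 79.0% in the Ptbp1 knockdown and 56.8% in control. The cytoskeletal linkers plectin and dystonin had counted exons as well, with the 15-nucleotide exon of Plec at 39.7% in the Ptbp1 knockdown and 4.67% in control. A 72-nucleotide exon of Dst was at 61.8% in the Ptbp1 knockdown and 13.2% in control, and a 111-nucleotide exon of Dst was in the opposite direction, at 62.9% in the Ptbp1 knockdown and 88.7% in control. In kinase signalling, a 156-nucleotide exon of Map3k4 was at 32.4% in the Ptbp1 knockdown and 7.46% in control, and a 153-nucleotide exon of Rapgef1, an exchange factor for Rap, was at 44.0% and 5.75%. No counted exon was found among 905 exons of nuclear pore and transport genes, 542 of other RNA-binding proteins, 333 of the proteasome or 251 of oxidative phosphorylation. The background shares above (0.246% and 0.114%) apply to these counts.

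Exons that change the end of a protein were also among the counted ones. In 14 higher and 5 lower exons both forms are annotated as coding although the frame shifts or the stop moves. An exon predicted to give an early stop on inclusion was placed here when a transcript that includes it is annotated as coding. Pfkfb3, which makes the activator of glycolysis fructose-2,6-bisphosphate, had a 23-nucleotide exon at 34.5% in the Ptbp1 knockdown, 58.3% in the double knockdown, 0.651% in the Ptbp2 knockdown and 2.67% in control. The signal peptide peptidase H13 had a 200-nucleotide exon at 34.2% in the Ptbp1 knockdown (1290 reads) and 6.15% in control (1593 reads). In the other direction, a 118-nucleotide exon of the adhesion molecule Mcam was at 60.4% in the Ptbp1 knockdown and 83.7% in control. Scarb1 encodes the HDL receptor SR-BI, and skipping of its 129-nucleotide exon, which holds the stop codon, gives the SR-BII tail. That exon was at 50.1% in the Ptbp1 knockdown (46.9 to 53.2, 979 reads), 26.0% in the double knockdown, 51.8% in the Ptbp2 knockdown and 81.8% in control (79.3 to 84.0, 1031 reads), so all knockdown libraries were below control.

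Among exons with lower inclusion the one with the most reads was in App, which encodes the amyloid precursor protein. The 168-nucleotide exon codes for the Kunitz protease inhibitor domain, which is left out of the form that neurons mostly make. It is shown because the whole domain comes and goes with this exon.
App, chr16:85043821-85043988, minus strand: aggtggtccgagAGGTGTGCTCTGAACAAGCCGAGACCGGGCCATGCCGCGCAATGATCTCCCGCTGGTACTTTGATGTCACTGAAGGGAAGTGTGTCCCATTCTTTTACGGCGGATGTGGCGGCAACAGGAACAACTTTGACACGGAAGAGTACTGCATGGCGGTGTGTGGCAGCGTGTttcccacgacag
It was included in 25.8% of reads in the Ptbp1 knockdown (24.1 to 27.7, 2206.5 reads), 16.8% in the double knockdown, 53.6% in the Ptbp2 knockdown and 61.3% in control (58.8 to 63.7, 1494 reads). Both libraries with low Ptbp1 were below both with Ptbp1. App RNA as a whole was at 588 CPM in the Ptbp1 knockdown and 504 CPM in control. Immt, the organizer of mitochondrial cristae, had a 102-nucleotide exon with the same split, at 35.0% in the Ptbp1 knockdown, 14.8% in the double knockdown, 79.5% in the Ptbp2 knockdown and 77.5% in control. A 54-nucleotide exon of Atp6v1h, a subunit of the vacuolar proton pump, was at 49.3% in the Ptbp1 knockdown (45.6 to 52.8), 36.0% in the double knockdown, 66.5% in the Ptbp2 knockdown and 79.9% in control (77.2 to 82.4).

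Other lower exons lay in signalling proteins. Akap11, an anchor of protein kinase A, had an 84-nucleotide exon at 23.3% in the Ptbp1 knockdown, 46.3% in the double knockdown, 77.1% in the Ptbp2 knockdown and 61.4% in control. The L-type calcium channel Cacna1c had a 75-nucleotide exon at 29.0% in the Ptbp1 knockdown (20.8 to 38.9) and 50.6% in control (40.1 to 61.1). The guidance ligand Sema6d had a 168-nucleotide exon at 44.5% in the Ptbp1 knockdown and 66.4% in control, with intervals of 35.1 to 53.8 and 54.8 to 78.6. Mroh1 had one of the 2 short exons in the lower direction, of 27 nucleotides, at 57.5% in the Ptbp1 knockdown and 94.5% in control. A few exons chosen after their values were seen add structural proteins. Those of 174 nucleotides in the microtubule protein Eml4 (64.8% in the Ptbp1 knockdown, 97.3% in control) and of 192 nucleotides in Sun1, which links the nucleus to the cytoskeleton (57.4% and 89.7%), were lower. Those of 114 nucleotides in the kinesin Kif2a (51.6% and 5.96%) and of 2361 nucleotides in Rtn4 (88.8% and 63.2%), the exon that marks the Nogo-A form, were higher. Atp2b4, a plasma membrane calcium pump, had exons in both directions, a 191-nucleotide one at 35.3% in the Ptbp1 knockdown and 6.19% in control, and a 36-nucleotide one at 21.4% and 80.4%.

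**Figure D2:**
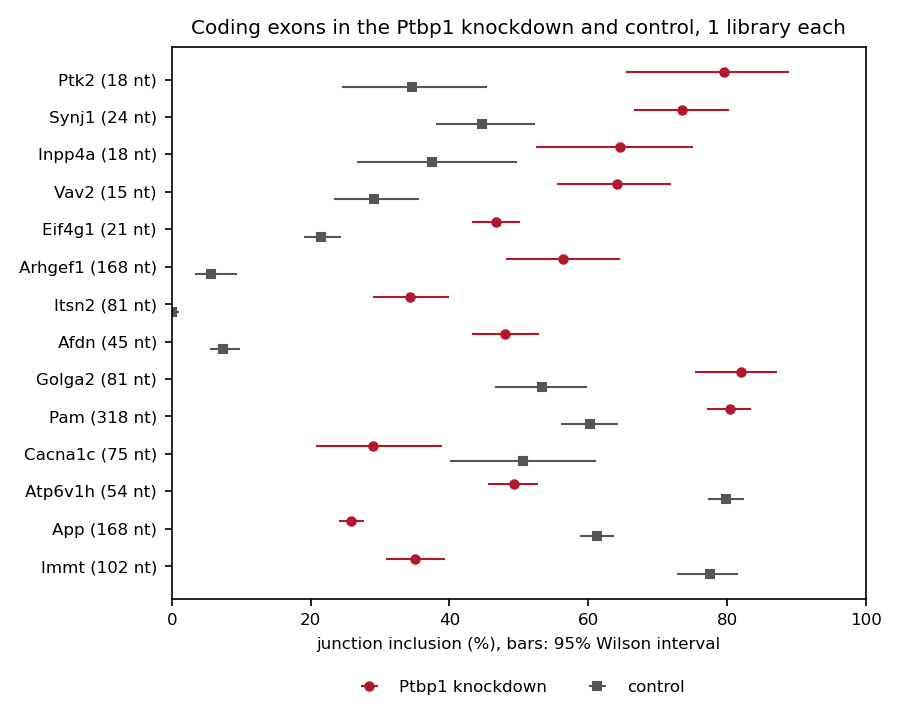
Junction inclusion (x axis, percent) of 14 coding exons, 1 row per exon with its length, in the Ptbp1 knockdown (red circles) and control (grey squares), 1 library each. Bars are 95% Wilson intervals, which cover counting error only. The exon of Arhgef1 lies at 56.4% and 5.65%, and that of App at 25.8% and 61.3%.

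The predicted consequence was read from annotated coding transcripts, taking each exon alone. A stop codon more than 50 nucleotides before the last junction was called an early stop, the usual trigger of nonsense-mediated decay. Of the 252 higher exons 163 kept the frame, as did 51 of the 117 lower ones. Frame-keeping variable exons were counted as higher in 7.34% of cases and as lower in 2.30%. Exons whose inclusion gives an early stop were higher in 4.95% and lower in 1.98% of 303 variable ones. Exons whose skipping gives an early stop were higher in 0.609% and lower in 1.34% of 1642. Beside these, 13 higher and 16 lower exons were untranslated, for example a 113-nucleotide exon of the chromatin remodeller subunit Pbrm1 at 78.7% in the Ptbp1 knockdown and 35.8% in control. A 46-nucleotide untranslated exon of Tbp, the TATA-binding protein, was at 57.5% in the Ptbp1 knockdown and 87.8% in control.

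The 15 higher exons whose inclusion gives an early stop lay in 14 genes, and 12 of these genes were below control in level, where 51.2% of all genes were below. With scaling by total exon reads 7 of the 14 were below control, against 31.2% of all genes. Some of them carry the stop codon themselves. The stop is in capitals in the sequences of whole exons below, 5′ to 3′. The exon of Bak1, at the end, has no stop of its own and shifts the frame, so there the exon is in capitals between its neighbours.
Bicdl1, chr5:116101165-116101273, minus strand: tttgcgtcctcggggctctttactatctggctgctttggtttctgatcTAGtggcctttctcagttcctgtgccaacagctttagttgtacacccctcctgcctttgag
Ptch1, chr13:63638790-63638916, minus strand: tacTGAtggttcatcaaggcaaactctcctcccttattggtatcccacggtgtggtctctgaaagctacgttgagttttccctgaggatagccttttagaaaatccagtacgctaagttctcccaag
Dennd3, chr15:73398416-73398543, plus strand: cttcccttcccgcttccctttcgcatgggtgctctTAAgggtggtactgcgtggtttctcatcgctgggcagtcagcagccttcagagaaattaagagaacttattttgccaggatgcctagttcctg
Dtnb, chr12:3774570-3774610, plus strand: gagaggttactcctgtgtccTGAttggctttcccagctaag
Pcsk7, chr9:45735120-45735201, plus strand: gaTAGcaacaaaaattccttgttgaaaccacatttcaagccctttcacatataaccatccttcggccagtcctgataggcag
Bak1, chr17:27158608-27158627, minus strand: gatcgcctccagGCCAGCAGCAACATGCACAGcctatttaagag

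Bak1 encodes a pore-forming protein of the outer mitochondrial membrane that carries out apoptosis. Its 20-nucleotide exon was at 57.9% in the Ptbp1 knockdown (48.5 to 66.9, 107 reads), 66.9% in the double knockdown, 16.9% in the Ptbp2 knockdown and 12.7% in control (9.0 to 17.7, 228 reads), and the gene was at 14.6 CPM in the Ptbp1 knockdown and 20.5 CPM in control. Ptch1 is the Hedgehog receptor. Its 127-nucleotide exon was at 54.5% in the Ptbp1 knockdown, 84.0% in the double knockdown, 9.03% in the Ptbp2 knockdown and 13% in control, and the gene was at 90.6 CPM in the Ptbp1 knockdown and 107 CPM in control. In Bak1 and in Ptch1, both libraries with low Ptbp1 were above both with Ptbp1 in the share of the early-stop form. Bicdl1, a dynein adaptor, had a 109-nucleotide exon at 61.6% in the Ptbp1 knockdown and 18.3% in control, with the gene at 40.9 CPM in the Ptbp1 knockdown and 41.7 CPM in control. The 128-nucleotide exon of Dennd3, an exchange factor for Rab proteins, was at 42.3% in the Ptbp1 knockdown and 6.87% in control. The 41-nucleotide exon of Dtnb, which encodes beta-dystrobrevin, was at 65.0% and 32.9% with the gene at 37.1 CPM in the Ptbp1 knockdown and 50 CPM in control. The 82-nucleotide exon of the proprotein convertase Pcsk7 was at 34.9% and 12.5%. Ripk2, a kinase of innate immune signalling chosen after its values were seen, had a 124-nucleotide exon at 32.0% in the Ptbp1 knockdown (48.5 reads) and 6.98% in control, with the gene at 7.77 CPM in the Ptbp1 knockdown and 14.6 CPM in control. Ist1, an ESCRT protein, was above control in level, with its 160-nucleotide exon at 58.7% in the Ptbp1 knockdown and 31.1% in control and the gene at 237 CPM in the Ptbp1 knockdown and 203 CPM in control.

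The early-stop form was also larger where an exon was skipped more. Of 22 such exons in 22 genes, 7 had at least 50 junction reads in both libraries and 10 had intervals apart, and the genes were above control in level for 10 and below for 12. Exons of Eps15l1, an endocytic adaptor (42.2% in the Ptbp1 knockdown, 69.8% in control), Ep400, a chromatin remodeller (54.2% and 81.7%), Arfrp1, a GTPase of the Golgi (54.9% and 75.7%), and Ap1s3, a clathrin adaptor subunit (62.3% and 82.9%), were among the well-covered ones.

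In 16 genes the early-stop form was smaller in the Ptbp1 knockdown, in 10 by more inclusion of an exon whose skipping gives the stop and in 6 by less inclusion of an exon that brings it in. Genes of the neuronal membrane were among them. Gabbr1 encodes a subunit of the GABA-B receptor, and its 151-nucleotide exon was at 93.6% in the Ptbp1 knockdown (90.6 to 95.7, 374 reads), 96.4% in the double knockdown, 27.5% in the Ptbp2 knockdown and 62.8% in control (54.1 to 70.9, 123.5 reads). The gene was at 98.8 CPM in the Ptbp1 knockdown and 37.0 CPM in control. Scamp5, a protein of synaptic vesicles, had a 157-nucleotide exon at 90.3% in the Ptbp1 knockdown, 83.8% in the double knockdown, 22.3% in the Ptbp2 knockdown and 57.8% in control, with the gene at 87.6 CPM in the Ptbp1 knockdown and 55.1 CPM in control. Dlg4, which encodes the postsynaptic scaffold PSD-95, had a 110-nucleotide exon at 70.9%, 86.0%, 26.3% and 47.3% in the same libraries, with the gene at 107 CPM in the Ptbp1 knockdown and 75.1 CPM in control. In all of these the Ptbp2 knockdown was below control and both libraries with low Ptbp1 were above it. Strada, a pseudokinase that activates the kinase Lkb1, had the same order for its 29-nucleotide exon, at 82.4%, 67.5%, 21.4% and 57.7%, but its level was 44.9 CPM in the Ptbp1 knockdown and 46.3 CPM in control. Cenpa, the centromeric histone, had a 137-nucleotide exon whose inclusion gives the early stop at 17.6% in the Ptbp1 knockdown and 37.7% in control, and its level was lower, at 53.1 CPM in the Ptbp1 knockdown and 72.4 CPM in control.

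Gene levels were then set against the forms. The 35 measured genes with a larger early-stop form had a median log2 difference in exon reads of -0.13, and 12 of them were above 0. The 16 with a smaller early-stop form had a median of 0.40, and 12 were above 0. The 185 genes whose counted exon keeps the frame had a median of 0.01, and all 11093 measured genes one of -0.01. The medians were -0.16, 0.24 and 0.11 after centring on genes of like level and GC content, and -0.01, 0.40 and 0.09 by FPKM, so the negative median was close to 0 by FPKM. With scaling by total exon reads it was 0.049, with all genes at 0.17. By kind, the 14 genes with more inclusion of an early-stop exon had a median of -0.19, and the 10 with less skipping into an early stop one of 0.47. The 22 with more skipping into an early stop had -0.14, with 10 above 0 and 12 below, and the 6 with less inclusion of an early-stop exon had -0.08, with 3 on each side. The medians of the 14, the 10 and the 22 were thus opposite in sign to the difference in the early-stop form, although the 22 were split in number. After centring these medians were -0.16, 0.33 and -0.17, with 11 of the 14 and 15 of the 22 below 0. With scaling by total exon reads they were -0.009, 0.64 and 0.04, with all genes at 0.17. The 6 were split as measured and after centring. A counted exon's own reads are part of its gene's sum. Level and form come from the same libraries, and decay itself was not measured.

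**Figure D3:**
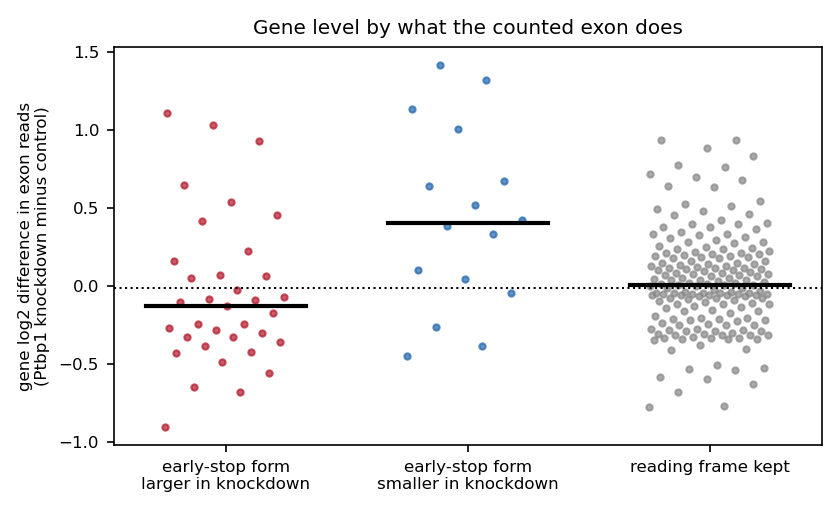
Difference in gene level (y axis, log2 of exon reads, Ptbp1 knockdown minus control), 1 point per gene, by predicted consequence of the gene's counted exon. Black lines are medians, at -0.13, 0.40 and 0.01, and the dotted line is the median of all measured genes.

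For gene levels, exon reads in each library were scaled (median of ratios over genes) and differences taken of log2(CPM + 0.1), so differences of low genes are understated. A gene was counted when it differed at least 1.5-fold, had at least 1 CPM in 1 of both libraries, and had an FPKM difference of the same sign where FPKM could be matched. At 1 CPM a gene has about 221 exon reads in the Ptbp1 knockdown and 244 in control, so counting error was small beside the differences named. Of 11093 genes, 1134 (10.2%) were higher in the Ptbp1 knockdown and 421 (3.80%) were lower. Scaling by total exon reads instead raised the median difference by 0.18 on the log2 scale, and single differences by less in genes of low level. It gave 1809 higher and 132 lower genes, so the signs of medians near 0 rest on the scaling. The direction went with level and base composition. By quintiles of exon-read level, the median log2 difference was 0.40 in the lowest quintile, then 0.10, -0.03, -0.09 and -0.20 in the highest, and the share counted as higher was 33.2% in the lowest and 0.631% in the highest. By quintiles of GC content it was -0.13, -0.10, -0.06, 0.04 and 0.22. In the corner of low level and high GC the median was 0.62, and in the opposite corner -0.26. The same trend by level was weaker in the double knockdown (0.18 in the lowest quintile, -0.12 in the highest) and in the Ptbp2 knockdown (0.03 and -0.04), both against the same control library. The part of this trend in the gene results was measured by centring each difference on the median of its bin of level and GC. By that measure 678 genes were higher (6.11%) and 468 lower (4.22%), and a centred median is given beside each list median below. In bulk RNA, fewer cells that express a gene and less RNA per cell cannot be told apart.

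**Figure D4:**
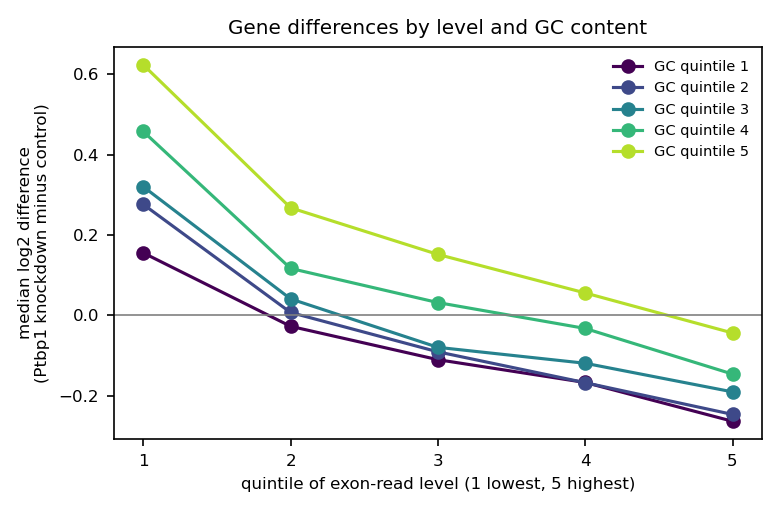
Median difference in gene level (y axis, log2 of exon reads, Ptbp1 knockdown minus control) by quintile of exon-read level (x axis), 1 line per quintile of GC content. The lowest level and highest GC stand at 0.62, and the highest level and lowest GC at -0.26.

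Ion channel genes had many higher members and 0 lower ones in the Ptbp1 knockdown. Of 14 measured voltage-gated potassium channel genes 6 were counted as higher and 0 as lower, with a median of 0.56 (0.26 centred, 0.33 by FPKM), against a median of -0.01 over all genes. The list's median level was 21.2 CPM in the Ptbp1 knockdown and 13.6 in control, in the second-lowest quintile, where 11.5% of genes were higher. After centring 4 were higher and 0 lower, where 6.11% of all genes were higher. Kcnmb4, a subunit that tunes calcium-activated channels, was at 20.8 CPM in the Ptbp1 knockdown, 16.2 in the double knockdown, 16.6 in the Ptbp2 knockdown and 11 in control. Of 20 calcium and sodium channel genes 9 (45%) were higher and 0 lower, where 10.2% of all genes were higher. Their median was 0.53 (0.37 centred, 0.53 by FPKM). The lowest quintile, where 33.2% of all genes were higher, held 8 of the 20, of which 4 were higher. The second held 6, of which 4 were higher. After centring 5 of the 20 were higher and 0 lower. The higher genes included Cacna1i, a T-type calcium channel, at 19.9 CPM in the Ptbp1 knockdown, 10.2 in the double knockdown, 5.74 in the Ptbp2 knockdown and 8.27 in control. The sodium channels Scn2a (29.9 CPM in the Ptbp1 knockdown, 18 in control) and Scn3a (19.1 and 12.2) and the calcium channel subunit Cacnb1 (35.0 and 17.9) were higher as well. Several channel members sat near 1 CPM, where the trend above is largest. Kcnn1, at 2.40 CPM in the Ptbp1 knockdown and 1.40 in control, had a log2 difference of 0.74 as measured and -0.06 after centring.

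Genes that handle ions beyond the channels also had higher members. Among 24 genes of calcium stores and sensors, 8 (33.3%) were higher and 0 lower, where 10.2% of all genes were higher (list median 0.32, 0.16 centred). Of the 8, 5 were among the 7 list members in the lowest quintile of level, where 33.2% of all genes were higher. Hpca, the calcium sensor hippocalcin, was at 24.2 CPM in the Ptbp1 knockdown, 11.7 in the double knockdown, 8.60 in the Ptbp2 knockdown and 9.46 in control. Itpr2, a receptor that releases calcium from the reticulum, was at 9.19, 4.68, 3.26 and 4.43 CPM. Among 21 pump genes, 3 were higher and 1 lower (14.3% and 4.76%), near the shares of all genes (10.2% and 3.80%). The list's median was 0.13 (0.32 centred, 0.05 by FPKM). After centring 5 were higher and 1 lower, where 6.11% of all genes were higher and 4.22% lower. The centred median lay above that of the potassium channels, while the median as measured lay below it. The sodium pump beta subunits Atp1b1 (36.0 CPM in the Ptbp1 knockdown, 23.2 in control) and Atp1b2 (12.5 and 5.79) were higher. The proton pump subunit Atp6v0e, at 18.8 CPM in the Ptbp1 knockdown and 50.6 in control, was the 1 pump gene counted as lower.

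Some genes of catecholamine synthesis and peptide release were higher. Of the 16 sympathetic and neuroblast markers 5 were higher and 0 lower, where 10.2% of all genes were higher, but the list did not move as a whole. Its median was 0.11 (0.17 centred), and 9 of 16 were above 0. Short of 1.5-fold, the neuronal genes Stmn2 (115 CPM in the Ptbp1 knockdown, 170 in control) and Tubb3 (375 and 440), the granule protein gene Chga (119 and 141) and the transcription factor gene Mycn (15.2 and 20.1) were below control. Th, which makes the dopamine precursor, was at 3.2 CPM in the Ptbp1 knockdown, 0.922 in the double knockdown, 0.150 in the Ptbp2 knockdown and 0.595 in control, and Ddc, which makes dopamine, at 14.7, 18.8, 19.6 and 7.08 CPM. The patterns differ, since Th was highest in the Ptbp1 knockdown and Ddc was above control in every knockdown. Of 15 granule genes 2 (13.3%) were higher, near the 10.2% of all genes (list median 0.21, 0.26 centred, 0.32 by FPKM). They were Pcsk1n, an inhibitor of a prohormone convertase (67.6 CPM in the Ptbp1 knockdown, 29.4 in control), and Resp18 (55.0 and 35.4).

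Genes of signalling between cells had higher members and 0 lower ones in the guidance, growth factor and BMP and TGF-beta lists, most of them in the lowest quintile of level, where 33.2% of all genes were higher. Of 25 genes of axon guidance ligands and receptors 7 were higher and 0 lower (median 0.29, 0.22 centred, 0.31 by FPKM). That quintile held 10 of the 25, of which 6 were higher. After centring 4 were higher and 1 lower, where 6.11% of all genes were higher and 4.22% lower. Sema6d, a transmembrane semaphorin and the 1 counted gene above the lowest quintile, was at 94.6 CPM in the Ptbp1 knockdown, 83.2 in the double knockdown, 57.3 in the Ptbp2 knockdown and 51.2 in control. The ephrin Efnb3 was at 2.32 CPM in the Ptbp1 knockdown and 0.825 in control, and the receptor Ephb3 at 2.70 and 0.912. Of 20 receptor tyrosine kinases and growth factors 6 were higher and 0 lower (median 0.28, 0.17 centred). The lowest quintile held 6 of the 20, of which 5 were higher, and after centring 4 of the 20 were higher. Gfra1, the co-receptor for GDNF, was at 12.2 CPM in the Ptbp1 knockdown, 7.65 in the double knockdown, 3.74 in the Ptbp2 knockdown and 4.56 in control. Pdgfra (6.76 CPM in the Ptbp1 knockdown, 3.62 in control) and Pdgfrb (2.66 and 0.895) also count among the fibroblast markers, whose collagen genes were under 1 CPM in both libraries (Col1a1 at 0.751 CPM in the Ptbp1 knockdown and 0.275 in control) and whose Lum, Thy1 and Fap were at 0 in both. Of 26 genes of the BMP and TGF-beta pathways 4 were higher and 0 lower, but the median of 0.09 (0.01 centred) was near that of all genes. The lowest quintile held 7 of the 26, of which 2 were higher. Ltbp3, a higher gene of this list that stores TGF-beta in the matrix, was at 75.5 CPM in the Ptbp1 knockdown, 23.7 in the double knockdown, 10.4 in the Ptbp2 knockdown and 32.6 in control.

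Inside the cell, 7 of 34 MAP kinase cascade genes (20.6%) were higher and 0 lower (median 0.14, 0.12 centred), where 10.2% of all genes were higher. Of the 7, 2 were in the lowest quintile of level and 4 in the second. After centring 3 were higher and 1 lower, where 6.11% of all genes were higher and 4.22% lower. Mapk10, the JNK of neurons, was at 112 CPM in the Ptbp1 knockdown, 78.7 in the double knockdown, 55.0 in the Ptbp2 knockdown and 65.9 in control. Of 33 phosphoinositide genes 5 were higher and 1 lower (15.2% and 3.03%), near the shares of all genes (10.2% and 3.80%), with a median of 0.14 (0.15 centred). The PI3-kinase subunit Pik3r3 was at 67.7 CPM in the Ptbp1 knockdown and 38.9 in control. Of 23 cyclic nucleotide genes 5 were higher and 0 lower, led by the phosphodiesterases Pde9a (7.77 CPM in the Ptbp1 knockdown, 2.76 in control) and Pde4a (6.90 and 2.72), and the list's median of -0.06 (0.11 centred, 0.12 with scaling by total reads) was close to that of all genes. All 5 were among the 7 list members in the lowest quintile of level, where 33.2% of all genes were higher. After centring 3 of the 23 were higher and 1 lower. Of 37 nuclear receptor and clock genes 7 (18.9%) were higher and 0 lower, but 22.4 CPM, the list's median level in the Ptbp1 knockdown, lies in a quintile where 11.5% of all genes were higher. The list's median was 0.08 (0.01 centred), and after centring 4 were higher and 2 lower. The thyroid hormone receptor Thra was at 69.3 CPM in the Ptbp1 knockdown and 41.2 in control, and the clock gene Per1 at 18.9 and 9.29. The Notch list had a median of 0.27 (0.15 centred) with 2 of 19 higher (10.5%), near the 10.2% of all genes. The immediate early genes had a median of 0.31 that was -0.05 after centring.

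Interferon-response genes, which sense double-stranded RNA or follow from it, had 9 of 25 measured members higher and 0 lower, with a median of 0.44 (0.33 centred, 0.37 by FPKM). The list's median level was 5.48 CPM in the Ptbp1 knockdown and 4.30 in control. It falls in the lowest quintile, where 33.2% of all genes were higher. That quintile held 13 of the 25, of which 8 were higher. After centring 6 of the 25 were higher and 2 lower, where 6.11% of all genes were higher and 4.22% lower. Mx1, an antiviral GTPase, was at 4.44 CPM in the Ptbp1 knockdown, 3.93 in the double knockdown, 1.92 in the Ptbp2 knockdown and 1.78 in control. Oas1b, of the oligoadenylate synthetases, was at 5.48, 4.99, 4.99 and 1.91 CPM, above control in every knockdown library, and as a member of a multigene family its reads are uncertain. Ifit2 was at 3.57 CPM in the Ptbp1 knockdown and 1.65 in control.

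**Figure D5:**
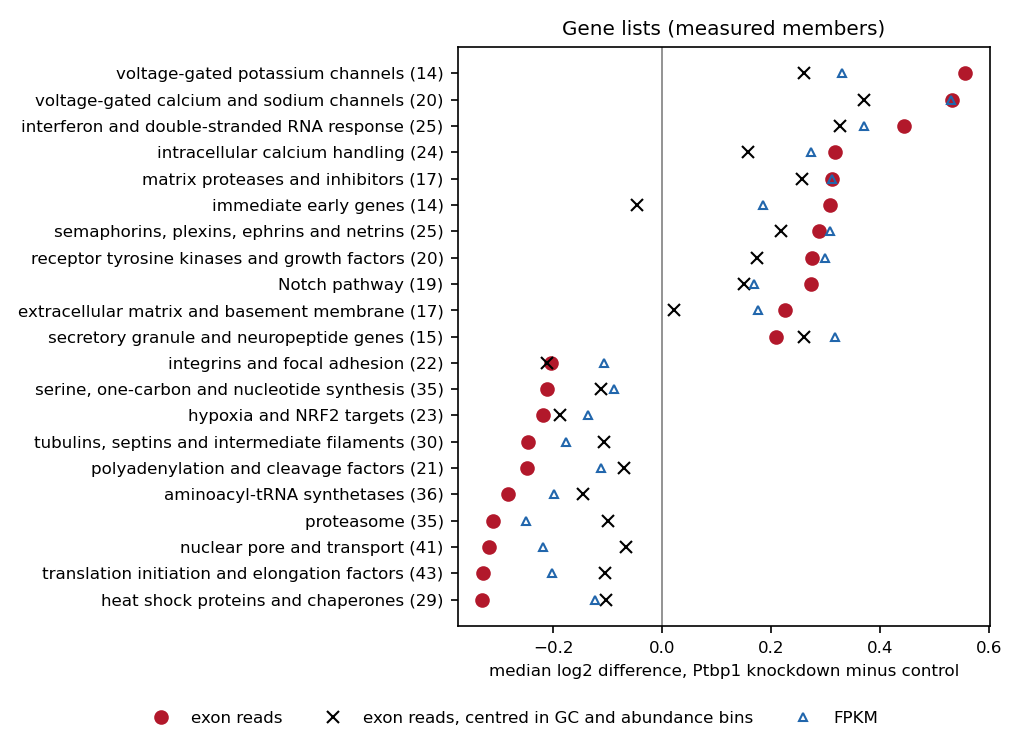
Median log2 difference, Ptbp1 knockdown minus control (x axis), of gene lists whose median in exon reads was at least 0.2 or at most -0.2, with the number of measured members. Red circles are exon reads, crosses the same after centring in bins of GC content and level, and triangles FPKM. Potassium channels stand at 0.56, 0.26 and 0.33, and chaperones at -0.33, -0.10 and -0.12.

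Genes of adhesion to the matrix were more often lower than higher. Of 22 integrin and focal adhesion genes 6 were lower and 1 higher, with a median of -0.20 (-0.21 centred, -0.11 by FPKM, -0.027 with scaling by total reads), where 3.80% of all genes were lower. The laminin-binding integrin subunit Itga6 was at 110 CPM in the Ptbp1 knockdown, 132 in the double knockdown, 134 in the Ptbp2 knockdown and 179 in control, and the collagen-binding Itga1 at 36.7, 23.3, 28.3 and 66.8 CPM. Vcl, which encodes vinculin and joins integrins to actin, was at 111 CPM in the Ptbp1 knockdown and 175 in control, and Fermt2, which encodes an integrin activator of the kindlin family, at 120 and 196. The adaptor Pxn, at 19.0 CPM in the Ptbp1 knockdown and 12.4 in control, was the higher one. Fn1, which encodes fibronectin, was at 364 CPM in the Ptbp1 knockdown, 353 in the double knockdown, 641 in the Ptbp2 knockdown and 715 in control. Both libraries with low Ptbp1 had about the same Fn1 level, below both others. The matrix list as a whole had 3 higher and 2 lower of 17 (17.6% and 11.8%, median 0.22, 0.02 centred), where 10.2% of all genes were higher. The basement membrane protein Nid1 was among the higher, at 3.00 CPM in the Ptbp1 knockdown and 0.809 in control. The proteases and their inhibitors had 4 higher and 3 lower of 17, with 13 above 0 and a median of 0.31 (0.26 centred, 0.31 by FPKM). All 4 higher ones were among the 6 list members in the lowest quintile of level, where 33.2% of all genes were higher. After centring 1 of the 17 was higher and 2 were lower. Timp2 was among the higher (6.10 CPM in the Ptbp1 knockdown, 2.36 in control). The urokinase receptor Plaur (16.9 and 28.3) and the sheddase Adam17 (45.3 and 75.1) were among the lower. Membrane proteins of the tetraspanin and raft list split likewise, with 3 higher and 4 lower of 27 (median 0.10, -0.10 centred). These are 11.1% and 14.8%, where 10.2% of all genes were higher and 3.80% lower. Flot1 and Flot2, which encode the flotillins of lipid rafts, were higher (53.5 CPM in the Ptbp1 knockdown and 32.5 in control for Flot1). Emp1 (21.0 and 46.0) and the myelin protein gene Pmp22 (68.8 and 105) were lower.

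Hypoxia and NRF2 target genes had 5 of 23 (21.7%) lower and 0 higher, where 3.80% of all genes were lower. The list's median was -0.22 (-0.19 centred, -0.14 by FPKM, -0.042 with scaling by total reads). Bnip3, a mitophagy receptor, was at 32.9 CPM in the Ptbp1 knockdown, 42.2 in the double knockdown, 34.7 in the Ptbp2 knockdown and 65.7 in control. Egln1, an oxygen sensor, was at 64.7, 97.0, 103 and 98.2 CPM. Bnip3 was thus lower in every knockdown library, and Egln1 only in the Ptbp1 knockdown beyond 1.5-fold. Ankrd37 was at 4.61 CPM in the Ptbp1 knockdown and 9.39 in control, and Txn1, which encodes thioredoxin, at 243 and 393.

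Abundant genes of general cell upkeep had negative medians that shrank after centring. Translation factors had a median of -0.33 (-0.10 centred) with 3 of 43 lower, and chaperones -0.33 (-0.10 centred) with 6 of 29 lower and 2 higher. For nuclear pore and transport genes it was -0.32 (-0.07 centred) with 6 of 41 lower, for the proteasome -0.31 (-0.10 centred) with 1 of 35 lower, and for tRNA synthetases -0.28 (-0.15 centred) with 2 of 36 lower. The median level of each of these lists lies in the highest quintile, where 5.63% of all genes were lower. Chaperones (20.7%) and nuclear pore genes (14.6%) were above that share, but after centring 0 of either were lower. Translation factors (6.98%) and tRNA synthetases (5.56%) were near it, and the proteasome (2.86%) was under it. Members named for their differences were Hspa8, a constitutive chaperone, at 5842 CPM in the Ptbp1 knockdown and 9254 in control, and Ipo7, an importin, at 304 and 544. Iars, the isoleucyl-tRNA synthetase, kept a log2 difference of -0.80 after centring, at 224 CPM in the Ptbp1 knockdown and 460 in control. Tyms, which makes thymidylate, was at 49.1 and 94.2 CPM. Oxidative phosphorylation genes had a median of -0.07 (0.11 centred, 0.10 with scaling by total reads) with 2 of 59 lower, and of 49 centrosome and cilium genes 0 were counted in either direction.

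By size alone, the largest differences were in genes of low level. Meg3, a long non-coding RNA of an imprinted locus, was at 26.8 CPM in the Ptbp1 knockdown, 17.7 in the double knockdown, 6.67 in the Ptbp2 knockdown and 3.25 in control. Caly, which encodes a vesicle protein that binds dopamine receptors, was at 4.23 CPM in the Ptbp1 knockdown, 0.929 in the double knockdown, 0.308 in the Ptbp2 knockdown and 0.522 in control, and Srcin1, an adaptor of Src kinase at synapses, at 3.34, 1.82, 0.608 and 0.476. The phosphatase gene Dusp26 (2.57 CPM in the Ptbp1 knockdown, 0.312 in control), the RNA-binding protein gene Igf2bp2 (2.06 and 0.25), the adhesion receptor gene Adgrg1 (3.69 and 0.546), the ephrin receptor gene Epha10 (6.15 and 1.16) and the kinesin gene Kifc2 (9.20 and 1.82) followed, as did Trpc5os, which lies antisense to Trpc5 and whose reads may not be told apart from it, and Gstm6, whose reads are uncertain as it belongs to a family of near copies. After centring the differences remained at 2.93 for Meg3, 2.00 for Caly and 1.51 for Epha10 on the log2 scale. Gnb3, Lrrc36, Tnfrsf13c, Th and Tas1r1 complete the 15 largest.

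Among the lower genes Ndrg1, a stress and hypoxia gene, had the largest difference, at 1.52 CPM in the Ptbp1 knockdown, 1.79 in the double knockdown, 2.15 in the Ptbp2 knockdown and 5.92 in control, a log2 difference of -1.89. All knockdown libraries were below control. Ect2, an exchange factor needed for cytokinesis, was at 77.1 CPM in the Ptbp1 knockdown, 84.7 in the double knockdown, 137 in the Ptbp2 knockdown and 171 in control, and Polr3g, an RNA polymerase III subunit, at 21.6, 32.4, 42.6 and 47.8 CPM. The membrane protein Emp1 was at 21.0, 14.4, 40.6 and 46.0 CPM, the anion exchanger Slc26a4 at 21.9, 20.4, 45.6 and 48.0 CPM, and the methionine salvage enzyme Adi1 at 6.94, 6.50, 13.9 and 16.3 CPM. For Ect2, Emp1, Slc26a4 and Adi1 the double knockdown was about as low as the Ptbp1 knockdown or lower, and for Polr3g it lay between the Ptbp1 knockdown and control. Flna, Ptbp1, Iqgap1, Atp6v0e, Tmod3, Cnn2, Actg1 and Anxa2 were also among the 15 largest.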

How the data were processed

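Per the submitters' processing notes, CASAVA, TopHat and Cufflinks were used with mm9, and versions are not given in the sources used here. The authors deposited FPKM with 95% intervals per gene and transcript from an assembly of each library, with a coverage signal and a score per assembled transcript, of which only names and coordinates were used. FPKM was rescaled within each library because the deposited values were not on the usual scale. Per the file headers, the SpliceTrap tables hold counts of junction reads, exon coverage signal and an inclusion ratio (a fraction) per exon trio. Exon reads are coverage times size over 100, summed over 237451 unique exons. Where a trio-dependent value differed, the largest was taken. Size factors came from 11658 genes with at least 50 reads in all 4 libraries. Genes and consequences were matched by structure to GENCODE vM21.

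Of the 11093 measured genes 513 had no matched FPKM. The scripts were tested on simulated data (Python 3.11.15, pandas 2.3.3, numpy 2.4.6). 1 library per group allows no test. The 50 gene lists, the markers and the thresholds were chosen with earlier results of these data known. Named genes are the 15 largest in each direction with at least 2 CPM and 1.5-fold in FPKM, without predicted genes. From each list up to 4 counted members were named, with a few further ones. Named exons are counted exons of list members and the 12 largest of each consequence class with at least 50 junction reads. Alternatives were other scalings, filters, read minimums and thresholds. Centring within 50 bins of GC content and level was chosen after seeing the data. The labels do not say how many cultures a library came from. A few members are not reported here.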

Additional observations from a re-analysis of the deposited data

How the results depend on the processing

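No paired analysis was possible because each group held 1 library. Leaving out a replicate was not possible for the same reason. Of 1134 higher and 421 lower genes as reported, scaling by total exon reads gave 1809 and 132, since it shifts the median difference by 0.18 (median of all genes 0.17). Scaling by the upper quartile gave 206 lower genes. At 5 CPM there were 630 higher genes, with no filter 2007, and at 2-fold 404 higher and 31 lower. Centring gave 678 higher. Lists with a median of at least 0.2 numbered 11, and 19 with total scaling, 17 with the upper quartile, 6 at 5 CPM and 7 with centring. Lists at -0.2 or below numbered 10, and 0 with total scaling, 3 with the upper quartile, 3 by FPKM and 1 with centring. All 10 of these lists stayed below 0 and below the median of all genes under each of these settings, from -0.32 to -0.19 against all genes as reported and from -0.21 to -0.07 with centring. The immediate early genes turned to -0.047 with centring. Of 252 higher and 117 lower exons, 136 and 39 were left at 100 junction reads and 68 lower ones at 50. The counts were 621 and 558 at 10 points, and 105 and 31 at 30. Of 37 exons with a larger early-stop form 20 had 50 reads. Of 16 with a smaller one 10 did, and 10 passed the SpliceTrap ratio. With total scaling, added after seeing the data, the median gene difference with a larger early-stop form turned to 0.049, against 0.17 over all genes. At 30 points the median gene difference was 0.67 with a smaller early-stop form (0.40 as reported) and -0.012 with the frame kept (0.007 as reported). The causes of these were not tested. Of 589 recomputed values, 548 stayed close, 38 moved and 3 turned. Of the 548, 229 belonged to the 15 largest genes in each direction, none of which turned. These genes were chosen for large differences with FPKM in the same direction, so they could hardly turn under these settings.

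Intervals lay apart for 210 of 252 higher exons and 77 of 117 lower ones. The lower ones had fewer junction reads (median 75 in the Ptbp1 knockdown and 70.5 in control, against 119 and 142.75 for the higher ones) and closer median inclusions, and the part of each was not tested. With 1 library a group, culture, transfection and library preparation cannot be told apart from the knockdown.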
